A study of Sus scrofa with 12 samples.

Results

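Keratins, S100 proteins and annexins were followed in pig oviduct epithelial cells as these cells went from the tissue into spheroids. The members were every row of the deposited table whose gene symbol fits a naming rule. A symbol had to begin with KRT and a number, with S100 and a letter, or with ANXA and a number. The rule reads names and no measured values, but it was chosen with earlier results of these data known. The rule found 44 rows carrying 41 symbols among 30461 gene rows, namely 17 keratin rows, 15 S100 rows and 12 annexin rows. S100PBP, a binding protein of an S100 protein, and the 3 rows of ANXA2R, a receptor of annexin 2, match by their names and are not family proteins.

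RNA was measured by bulk sequencing of polyadenylated transcripts, primed with oligo-dT, in 12 libraries, 4 from each of 3 groups. The first group, called fresh cells here, was oviduct epithelium scraped from the tissue and lysed as single cells. In the other groups the cells had formed spheroids. One of these groups formed them in DMEM/F12 and has FBS in its library titles, the other formed them in Incubation Medium and has Diff in its titles, and the compositions of the media are not given in the sources used here. The study describes how to produce such spheroids at scale, so the comparisons ask what changed between the scraped cells and each kind of spheroid and between the media. No genetic change is named for any group, and pig breed, age and the time in culture are not given in the sources used here. The labels do not say whether replicates came from separate animals or cultures, so every p-value measures the spread between these libraries, which may be technical. Both comparisons with fresh cells use the same 4 fresh cell libraries, so their values are set side by side and are not independent.

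Keratins are the intermediate filament proteins of epithelia. A type I keratin always pairs with a type II keratin, and KRT18 with KRT8 is the pair of simple, single-layered epithelia such as the oviduct. S100 proteins are small calcium-binding proteins that act mostly as dimers, and most of their genes lie side by side on one chromosome. Annexins bind membrane phospholipids when calcium rises, and several annexins bind an S100 partner through their N-terminal tail.

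Library totals over genes ranged from 5045187 to 6026881 counts in fresh cells, from 7583553 to 8068187 in DMEM/F12 spheroids and from 7585780 to 8603774 in incubation medium spheroids. Levels are CPM (counts scaled to a common library total) with TMM-scaled library sizes, given for replicates 1 to 4 in that order, and a gene is said to rise or fall where the edgeR test adjusted over 14070 genes gave p under 0.05. A count of 0 allows up to 3 counts, the floor used for bounds. Of 5 oviduct epithelium markers with a row, 4 fell and CDH1 rose in DMEM/F12, and 3 fell and CDH1 rose in incubation medium. For this and the other marker lists the shares over all tested genes were 35.1% higher and 35.7% lower in DMEM/F12. In incubation medium they were 35.8% each way. The 5 oviduct epithelium markers summed to 18226 to 28438 CPM in fresh cells, 2181 to 2783 in DMEM/F12 and 1779 to 2438 in incubation medium spheroids. The oviduct glycoprotein OVGP1 made most of the fall of this sum, from 22196 ± 4586 CPM to 399 ± 251 and 469.8 ± 319.7 (SD, n = 4), while the epithelial gene EPCAM was at 902 ± 112, 627 ± 125 and 713 ± 148 CPM. Summed multiciliated cell markers (3 of 7 with a row) were 882 to 997 CPM in fresh cells, 108 to 271 in DMEM/F12 and 99.7 to 189 in incubation medium spheroids. Smooth muscle markers (4 of 5 with a row) summed to 198 to 331, 1045 to 1188 and 227 to 532 CPM, mostly TAGLN, which rose in both media, while ACTA2 was not called, CNN1 fell and DES had 0 counts in fresh cells. CNN1 passed the filter on low counts through its fresh cell levels, which favoured a fall. Endothelial markers (4 of 4 with a row) summed to 39.6 to 55.7, 135 to 251 and 90.9 to 147 CPM, where CDH5 and KDR rose, PECAM1 fell and VWF had 0 counts in fresh cells and DMEM/F12. In bulk RNA fewer cells of a type and less RNA per cell cannot be told apart, and the part of these shifts in the results below was not tested.

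Of the 44 members, 28 passed the filter on low counts and were tested: 4 keratin rows, 15 S100 rows and 9 annexins. The other 16, 13 keratin rows and the 3 ANXA2R rows, had at most 7.5 counts in any library, and KRT1, KRT24 and KRT27 had 0 in all 12. Among the tested members, S100A5, S100A8, S100A9, S100A12 and the second KRT8 row passed only through their spheroid levels, so the filter favoured a rise over fresh cells. ANXA13 and S100G each reached the cutoff of 1.3 CPM in 4 fresh cell libraries, 1 DMEM/F12 library and 0 incubation medium libraries. The filter so favoured a fall in both, and both stay in the counts below. KRT7, KRT19, S100A13, S100A16 and ANXA6 are not analysed here, since no row carries those symbols.

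In DMEM/F12 spheroids 22 of the 28 tested members rose and 2 fell against fresh cells, where 35.1% of all tested genes rose and 35.7% fell. Leaving out the 5 members that passed through the spheroids, 17 of 23 rose, 2 fell and 4 were not called. The median log2 fold change was 1.87 over the 28 (1.76 with members at the floor set to their bounds), 1.34 over the 23 and -0.01 over all tested genes. By family, 4 of 4 keratin rows, 12 of 15 S100 rows and 6 of 9 annexins rose, with medians of 1.70, 2.56 and 1.19. Leaving out the 5 members, 3 of 3 keratin rows (median 0.81) and 8 of 11 S100 rows (median 2.06) rose. The keratin median was 1.33 with the second KRT8 row set to its bound. A rise of at least 2-fold was called for 18 members and for 15.1% of all tested genes, and a fall of that size for 1 member and 20.3%. Groups did not overlap, with the spheroids above, for 21 members and 32.4% of all tested genes, and with the spheroids below for 1 member and 32.9%.

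In incubation medium spheroids 21 of the 28 rose and 4 fell, against 35.8% and 35.8% of all tested genes. Over the 23 members, 16 rose, 4 fell and 3 were not called. The medians were 1.59 over the 28, 1.18 over the 23 and -0.01 over all tested genes. Here 4 of 4 keratin rows, 11 of 15 S100 rows and 6 of 9 annexins rose, with medians of 1.35, 2.58 and 1.07. Leaving out the 5 members, 3 of 3 keratin rows (median 1.12) and 7 of 11 S100 rows (median 1.80) rose. A rise of at least 2-fold was called for 19 members and 15.3% of all tested genes. A fall of at least 2-fold was called for 3 members and 21.5%. Spheroids lay above fresh cells without overlap for 21 members and 32.4% of all tested genes, and below them for 4 members and 32.5%.

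**Figure D1:**
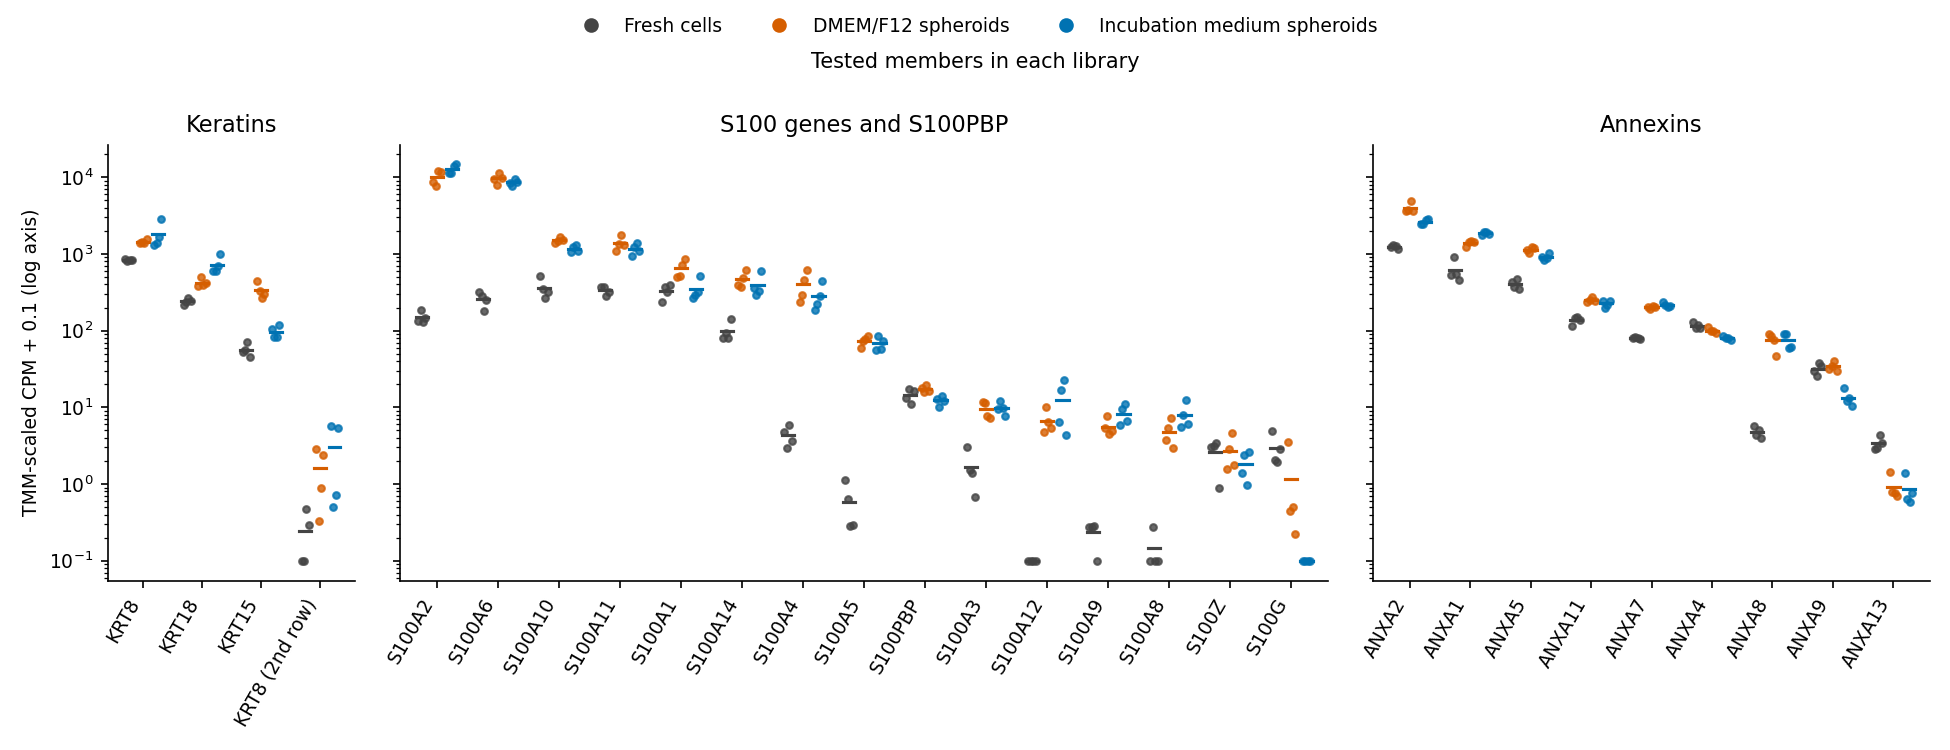
TMM-scaled CPM plus 0.1 on a log axis for each of the 28 tested members, by family. Each point is a library, short lines are group means, and grey, orange and blue stand for fresh cells, DMEM/F12 and incubation medium spheroids. S100A2 and S100A6 lay between 7632 and 14738 CPM in the spheroids and at most at 315 CPM in fresh cells.

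The keratin pair of simple epithelia rose in both media. KRT18 (ENSSSCG00025055042), the type I partner, stood at 216, 235, 269 and 245 CPM in fresh cells, at 381, 501, 393 and 421 in DMEM/F12 spheroids and at 593, 598, 694 and 984 in incubation medium spheroids. The 3 groups did not overlap, with fresh cells lowest and incubation medium highest. Its log2 fold change against fresh cells was 0.81 (SE 0.15, edgeR adjusted p = 0.000217) in DMEM/F12 and 1.57 (SE 0.15, adjusted p = 4.32e-07) in incubation medium.

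KRT8 (ENSSSCG00025055569), the type II partner, stood at 863, 797, 829 and 835 CPM in fresh cells, at 1374, 1446, 1401 and 1569 in DMEM/F12 and at 1317, 1375, 1656 and 2885 in incubation medium spheroids. All 8 spheroid libraries lay above all fresh cell libraries, and incubation medium replicate 4 stood far above the other 3 of its group. The log2 fold change was 0.80 (SE 0.19, edgeR adjusted p = 0.00173) in DMEM/F12 and 1.12 (SE 0.19, adjusted p = 0.000109) in incubation medium. Without incubation medium replicate 4 the latter was 0.82 (adjusted p = 2.82e-06), and that of KRT18 was 1.40 (adjusted p = 1.41e-07). KRT8 counts were not whole in 91.7% of libraries, as where a counter splits reads between similar genes, so its level is uncertain. KRT18 counts were not whole in 16.7% of libraries.

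The count ratio of KRT8 to KRT18 was 3.99, 3.40, 3.08 and 3.41 in fresh cells, 3.60, 2.88, 3.57 and 3.73 in DMEM/F12 and 2.22, 2.30, 2.39 and 2.93 in incubation medium spheroids. All 4 incubation medium ratios lay below the lowest fresh cell ratio. The log2 ratio differed by -0.50 from fresh cells (exact permutation p = 0.0286, the smallest possible with 4 against 4). Adjusted over the 10 ratio tests made here, this and every other ratio test failed (adjusted p = 0.0953 for this one, two-sided).

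KRT15 (ENSSSCG00025027685), a type I keratin best known from basal cells of layered epithelia, had the largest fold difference between the media among the tested members other than S100G, which had 0 counts in incubation medium. Fresh cells had 52.1, 55.8, 70.7 and 45.0 CPM, DMEM/F12 spheroids 443, 331, 264 and 299.7, and incubation medium spheroids 106, 81.8, 82.0 and 119. The 3 groups did not overlap, with DMEM/F12 highest. KRT15 rose by a log2 fold change of 2.58 (SE 0.18, edgeR adjusted p = 2.17e-08) in DMEM/F12 and by 0.79 (SE 0.18, adjusted p = 0.00112) in incubation medium. It made up 4.94% ± 0.868 of the counts of the 17 keratin rows in fresh cells, 15.1% ± 3.41 in DMEM/F12 and 3.89% ± 0.984 in incubation medium (SD, n = 4). Its counts too were not whole in 91.7% of libraries.

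A second row named KRT8 (ENSSSCG00025056710) held 3 counts in all over the fresh cells, 50 over the DMEM/F12 and 94 over the incubation medium spheroids. Scaled to depth, the ratio to fresh cells was 11.09 (95% counting interval 3.58 to 55.6) in DMEM/F12 and 21.7 (7.20 to 107) in incubation medium. Both rises were called (edgeR adjusted p = 0.0392 and 0.00611), though this row passed the filter only through the spheroids. The DMEM/F12 call was lost under limma-voom (adjusted p = 0.0932) and without fresh cell replicate 1, 2 or 4 or DMEM/F12 replicate 1 or 4 (adjusted p = 0.0654 to 0.0911).

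The 17 keratin rows summed to 1129 ± 33.3 CPM in fresh cells, 2208 ± 107 in DMEM/F12 and 2626 ± 931 in incubation medium spheroids (SD, n = 4). The type I sum was 298 ± 30.2, 759 ± 84.6 and 815 ± 197 CPM in these groups. The type II sum was 831 ± 27.0, 1449 ± 86.4 and 1811 ± 734 CPM. No row is named KRT7 or KRT19, so the sums and shares cover the named rows and not all keratins. The 13 untested rows were KRT1, KRT2, KRT3, KRT12, KRT20, KRT24, KRT27, KRT31, KRT34, KRT40, KRT74, KRT79 and KRT222, several of them keratins of epidermis, cornea or hair.

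S100 genes showed the largest rises of the 3 families. S100A2 (ENSSSCG00025019554), an S100 gene of epithelial cells, stood at 135, 186, 130.2 and 145 CPM in fresh cells. It reached 8562, 7632, 11926 and 11637 CPM in DMEM/F12 and 11211, 11313, 13970.3 and 14738 in incubation medium spheroids. Every spheroid library was far above every fresh cell library, and the media overlapped. Against fresh cells the log2 fold change was 6.06 (SE 0.20, edgeR adjusted p = 1.76e-11) in DMEM/F12, a 66.7-fold rise, and 6.43 (SE 0.20, adjusted p = 9.36e-12) in incubation medium, an 86.0-fold rise.

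S100A6 (ENSSSCG00025019381), also called calcyclin and abundant in dividing cells, stood at 315, 279, 179 and 251 CPM in fresh cells. DMEM/F12 spheroids had 9468, 7919, 11455 and 9865 CPM and incubation medium spheroids 8399.9, 7777, 9353 and 8657. The media overlapped and fresh cells lay below both. It rose 37.8-fold in DMEM/F12 (log2 fold change 5.24, SE 0.18, edgeR adjusted p = 2.87e-11) and 33.4-fold in incubation medium (5.06, SE 0.18, adjusted p = 3.17e-11).

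S100A4 (ENSSSCG00025019479), which binds non-muscle myosin and is well known from mesenchymal and motile cells, was low in fresh cells at 4.69, 2.86, 5.78 and 3.52 CPM. It reached 236, 290.04, 463 and 609.97 CPM in DMEM/F12 and 183, 221, 284 and 439.8 in incubation medium spheroids. In both media replicate 4 was highest and replicate 1 lowest, and no spheroid library came near the fresh cells. The log2 fold change was 6.56 (SE 0.42, edgeR adjusted p = 7.24e-09) and 6.06 (SE 0.41, adjusted p = 1.36e-08). Summed stromal markers (5 of 8 with a row) were 58.4 to 92.5 CPM in fresh cells, 23.0 to 77.9 in DMEM/F12 and 11.4 to 15.2 in incubation medium spheroids. Of these 5, THY1 rose in both media while 2 fell in DMEM/F12 and 4 in incubation medium, and 2 were not called in DMEM/F12. THY1 passed the filter only through its spheroid levels, which favoured a rise. COL3A1 passed it only through its fresh cell levels, which favoured a fall. The part of stromal cells in the S100A4 result was not tested.

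S100A5 (ENSSSCG00025019432), a little studied member best known from sensory neurons of the nose, had 1.04, 0.537, 0.187 and 0.196 CPM in fresh cells. Fresh cell replicate 1 alone was above the floor of 3 counts. S100A5 passed the filter only through the spheroids, which favoured a rise. DMEM/F12 spheroids had 59.1, 72.9, 77.8 and 84.4 CPM and incubation medium spheroids 55.96, 85.3, 58.0 and 73.5. Against fresh cells the log2 fold change was 7.14 (SE 0.30, edgeR adjusted p = 1.57e-10) in DMEM/F12 and 7.03 (SE 0.30, adjusted p = 1.9e-10) in incubation medium. Its counts were whole numbers in all 12 libraries.

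S100A3, known from the hair cuticle, was at 1.57 ± 0.995, 9.46 ± 2.44 and 9.62 ± 1.84 CPM (SD, n = 4) in the 3 groups. It rose by 2.56 (SE 0.33, edgeR adjusted p = 8.37e-06) in DMEM/F12 and 2.58 (SE 0.33, adjusted p = 7.47e-06) in incubation medium on the log2 scale. S100A14 (ENSSSCG00025019643), found in many epithelia, had 80.4, 92.5, 79.3 and 140.4 CPM in fresh cells. It had 395, 376, 489 and 611 CPM in DMEM/F12 and 358, 287, 329 and 604 in incubation medium spheroids. Replicate 4 was highest in each group, and no spheroid library overlapped the fresh cells. Its log2 fold changes were 2.25 (SE 0.25, edgeR adjusted p = 1.78e-06) and 2.01 (SE 0.25, adjusted p = 5.04e-06).

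S100A10 (ENSSSCG00025050804), the partner of annexin 2, lacks working calcium sites. It stood at 518, 345, 269 and 322 CPM in fresh cells, at 1376, 1488, 1683 and 1497 in DMEM/F12 and at 1050.1, 1242, 1309 and 1096 in incubation medium spheroids. S100A11 (ENSSSCG00025050557), a partner of annexin 1, stood at 368, 374, 279.9 and 316 CPM, at 1101, 1367, 1757 and 1322 and at 942, 1233, 1384 and 1102. Both genes were above fresh cells in all 8 spheroid libraries. In DMEM/F12 their log2 fold changes were 2.06 (SE 0.16, edgeR adjusted p = 6.5e-08) and 2.05 (SE 0.15, adjusted p = 3.36e-08). In incubation medium they were 1.69 (SE 0.16, edgeR adjusted p = 3.94e-07) and 1.80 (SE 0.15, adjusted p = 1.14e-07).

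S100A1 (ENSSSCG00025019764), a regulator of calcium handling best known from muscle, rose in DMEM/F12 and was not called in incubation medium. It stood at 234, 375, 321 and 398 CPM in fresh cells, at 499, 516, 720.2 and 857 in DMEM/F12 and at 264, 289, 321 and 512 in incubation medium spheroids. The DMEM/F12 libraries all lay above the fresh cells, and the incubation medium libraries overlapped them. The log2 fold change was 0.96 (SE 0.23, edgeR adjusted p = 0.00169) in DMEM/F12 and 0.06 (95% interval -0.43 to 0.55, adjusted p = 0.822) in incubation medium. In the RefSeq annotation of Sscrofa11.1 the gene S100A13 overlaps S100A1, so reads of the 2 cannot be told apart where counting did not use strand, which is not stated.

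The inflammatory S100 genes S100A8 and S100A9, whose proteins join as calprotectin, and S100A12 are best known from neutrophils and are also made by stressed epithelia. S100A12 (ENSSSCG00025058600) had 0 counts in all fresh cell libraries. Like S100A8 and S100A9 it passed the filter only through the spheroids, which favoured a rise. DMEM/F12 spheroids had 4.73, 9.97, 6.34 and 5.27 CPM and incubation medium spheroids 6.43, 16.8, 22.5 and 4.29. Against a floor of 3 counts per library it was at least 11.9-fold higher in DMEM/F12 (edgeR adjusted p = 0.000176) and at least 22.7-fold higher in incubation medium (adjusted p = 3.34e-05).

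S100A8 had 1 count over the 4 fresh cell libraries, 153 over the DMEM/F12 and 250 over the incubation medium libraries. Its ratio to fresh cells was 102 (95% counting interval 18 to 4048) in DMEM/F12 and 173 (30.8 to 6865) in incubation medium. S100A9 had 3, 181 and 256 counts, with ratios of 40.2 (13.5 to 196.5) and 59.1 (20.0 to 288). Both rose in both media (edgeR adjusted p between 6.13e-08 and 3.11e-06).

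Of 11 myeloid and neutrophil markers 7 had a row and 6 were tested. None of the 6 rose by edgeR in either medium, 4 fell in DMEM/F12 and 5 fell in incubation medium. Of all tested genes 35.7% fell in DMEM/F12 and 35.8% in incubation medium, so counts this small are given as descriptions. ITGAM passed the filter through its fresh cell levels, which favoured a fall. The summed level of the 7 markers was 40.3 to 60.8 CPM in fresh cells, 13.4 to 39.6 in DMEM/F12 and 10.5 to 33.6 in incubation medium spheroids. PTPRC, carried by all leukocytes, was at 6.99 ± 1.19, 2.53 ± 0.824 and 1.20 ± 0.765 CPM (SD, n = 4). The monocyte marker CD14 was not called, at 2.66 ± 1.38, 3.23 ± 0.487 and 4.53 ± 1.27 CPM. The neutrophil receptor CSF3R, which was not tested, held 13, 9 and 4 counts in all. The part of such cells in the S100A8, S100A9 and S100A12 results was not tested.

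S100G (ENSSSCG00025076777), calbindin-D9k, a calcium-binding protein of intestine and uterus, went the other way. It passed the filter through its fresh cell levels, which favoured a fall. It had 4.86, 1.97, 1.87 and 2.74 CPM in fresh cells, 3.40, 0.348, 0.396 and 0.120 in DMEM/F12 and 0 in all incubation medium libraries. It was at least 7.49-fold lower in incubation medium than in fresh cells (edgeR adjusted p = 0.00103). In DMEM/F12 it was not called (log2 fold change -1.41, SE 0.74, adjusted p = 0.107). It was called there with a replicate block (-1.58, edgeR adjusted p = 0.00946), under limma-voom (-2.24, adjusted p = 0.00502) and without DMEM/F12 replicate 1 (-3.24, edgeR adjusted p = 0.000379).

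S100Z and S100PBP were called in neither medium against fresh cells. S100Z was at 2.53 ± 1.18, 2.60 ± 1.39 and 1.75 ± 0.793 CPM (SD, n = 4), with 95% intervals of its log2 fold change from -0.95 to 0.99 in DMEM/F12 and from -1.57 to 0.46 in incubation medium. S100PBP was at 14.3 ± 2.85, 17.3 ± 1.79 and 12.2 ± 1.62 CPM. Its intervals ran from -0.06 to 0.60 in DMEM/F12, where library totals in place of TMM gave a call (0.35, edgeR adjusted p = 0.0479), and from -0.56 to 0.11 in incubation medium.

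**Figure D2:**
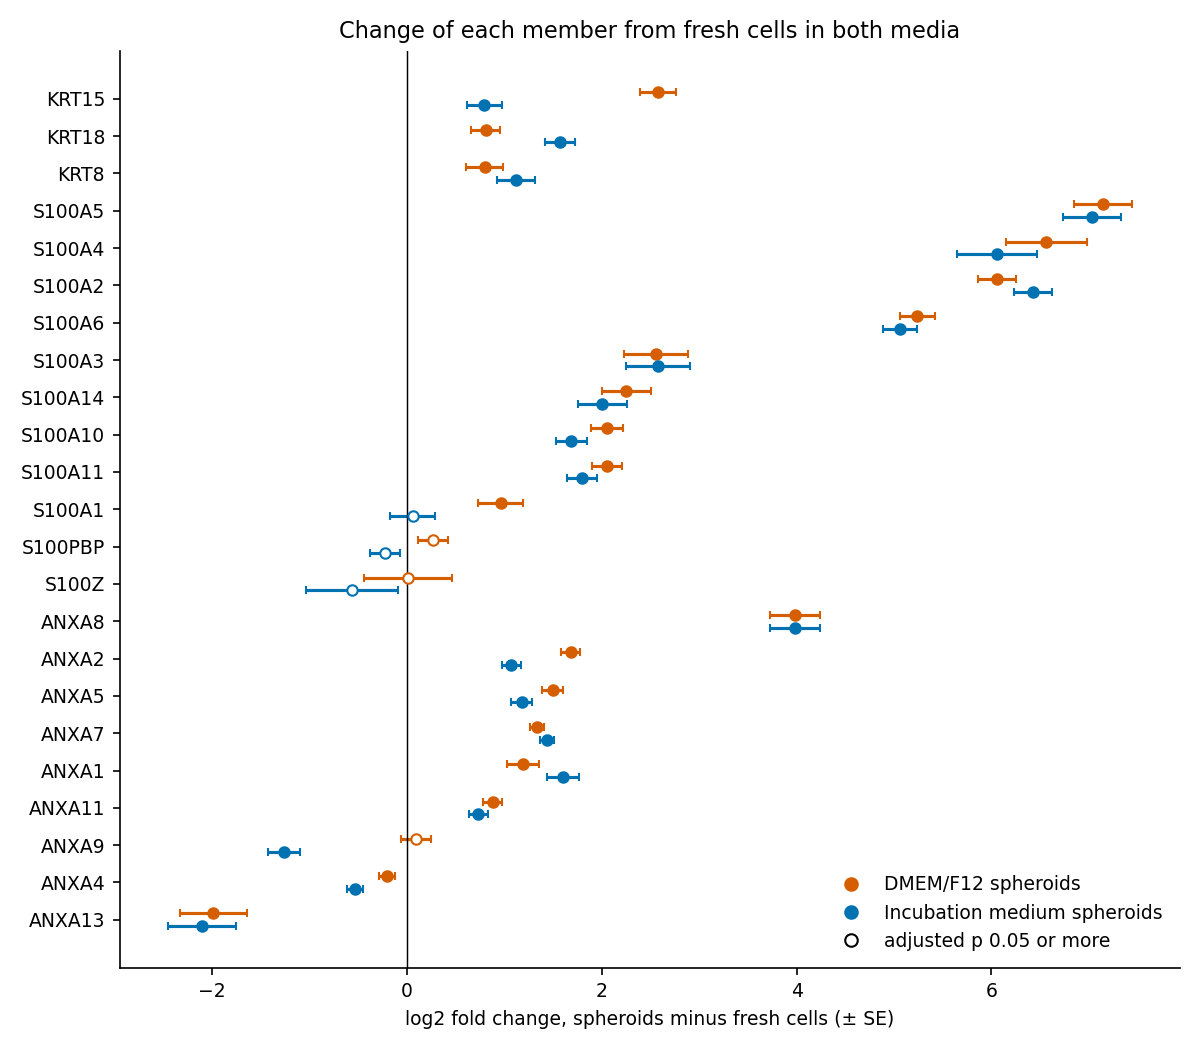
Log2 fold change from fresh cells with its standard error for 23 tested members in DMEM/F12 (orange) and incubation medium spheroids (blue), open where the adjusted p was 0.05 or more. S100A12, S100A8, S100A9, S100G and the second KRT8 row are left out because a group held 0 to 3 counts. The S100 genes S100A2, S100A4, S100A5 and S100A6 lie between 5.06 and 7.14, and ANXA4, ANXA9 and ANXA13 reach below 0. S100A5 passed the filter only through the spheroids.

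The 14 S100 genes, without S100PBP, took 1545 ± 187 CPM in fresh cells, 24133 ± 4126 in DMEM/F12 and 24826 ± 2693 in incubation medium spheroids (SD, n = 4). These sums were 0.154%, 2.41% and 2.48% of the counts. Counts were not scaled for transcript length, so the make-up of the sum is a share of counts and not of molecules per length. S100A10, S100A1 and S100A11 held 23.3% ± 5.15, 21.8% ± 5.29 and 21.6% ± 1.13 of the S100 counts of fresh cells, and S100A6 and S100A2 held 16.4% ± 2.00 and 9.67% ± 1.33. In DMEM/F12 spheroids S100A2 held 40.9% ± 2.35 and S100A6 40.3% ± 2.60. In incubation medium spheroids S100A2 held 51.5% ± 1.91 and S100A6 34.6% ± 2.28. The share of S100A2 did not overlap between the media, at 38.7% to 43.9% in DMEM/F12 and 49.8% to 54.1% in incubation medium.

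**Figure D3:**
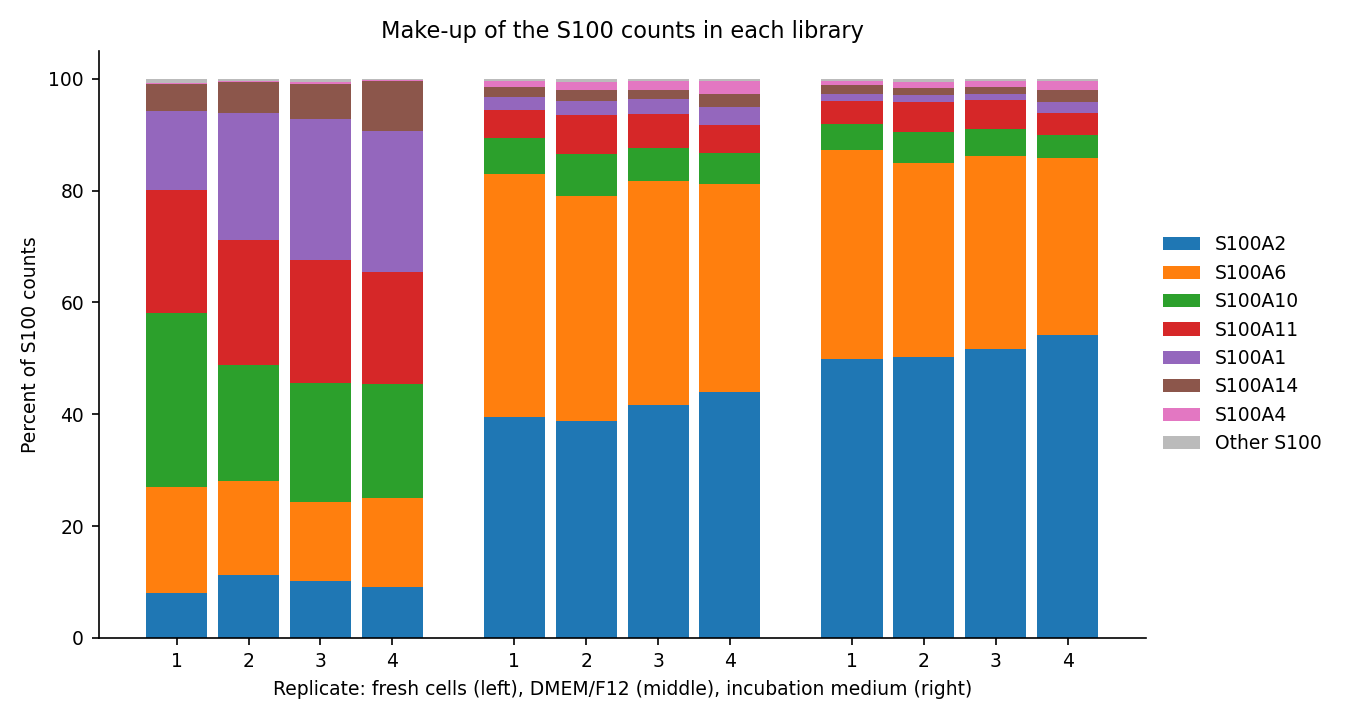
Percent of the summed S100 counts held by each S100 gene, 1 bar per library, with fresh cells left, DMEM/F12 spheroids in the middle and incubation medium spheroids right. S100A2 and S100A6 rise from means of 9.67% and 16.4% in fresh cells to 40.9% and 40.3% in DMEM/F12 and 51.5% and 34.6% in incubation medium.

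The 10 tested S100 genes of the cluster lie in the RefSeq annotation of Sscrofa11.1 in the order S100A1, S100A14, S100A2, S100A3, S100A4, S100A5, S100A6, S100A8, S100A12 and S100A9. S100A13, S100A16, S100A7, LOC110260465 and LOC102161828 lie among them there and have no row under these symbols. The deposited table gives no coordinates and its identifiers matched none in that annotation, so the order was taken by symbol. All 10 rose in DMEM/F12 and 9 of 10 in incubation medium, where S100A1 was not called, beside 35.1% and 35.8% of all tested genes. S100A5, S100A8, S100A9 and S100A12 passed the filter only through the spheroids, and without these 4 the counts were 6 of 6 and 5 of 6. The 5 consecutive genes S100A2 to S100A6 rose in both media, by log2 fold changes from 2.56 to 7.14 in DMEM/F12 and from 2.58 to 7.03 in incubation medium. The upper ends, 7.14 and 7.03, are those of S100A5. The largest of the others were 6.56 (S100A4) in DMEM/F12 and 6.43 (S100A2) in incubation medium. Among the 10 nearest tested genes on each side that are not members, 4 rose and 8 fell in DMEM/F12 (median -0.13) and 3 rose and 7 fell in incubation medium (median -0.13). Their log2 fold changes ranged from -1.35 to 1.14 and from -1.48 to 1.17. CREB3L4 on one side and SELENBP1 on the other fell in both media, and PSMB4 rose in both (1.14 and 1.17).

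**Figure D4:**
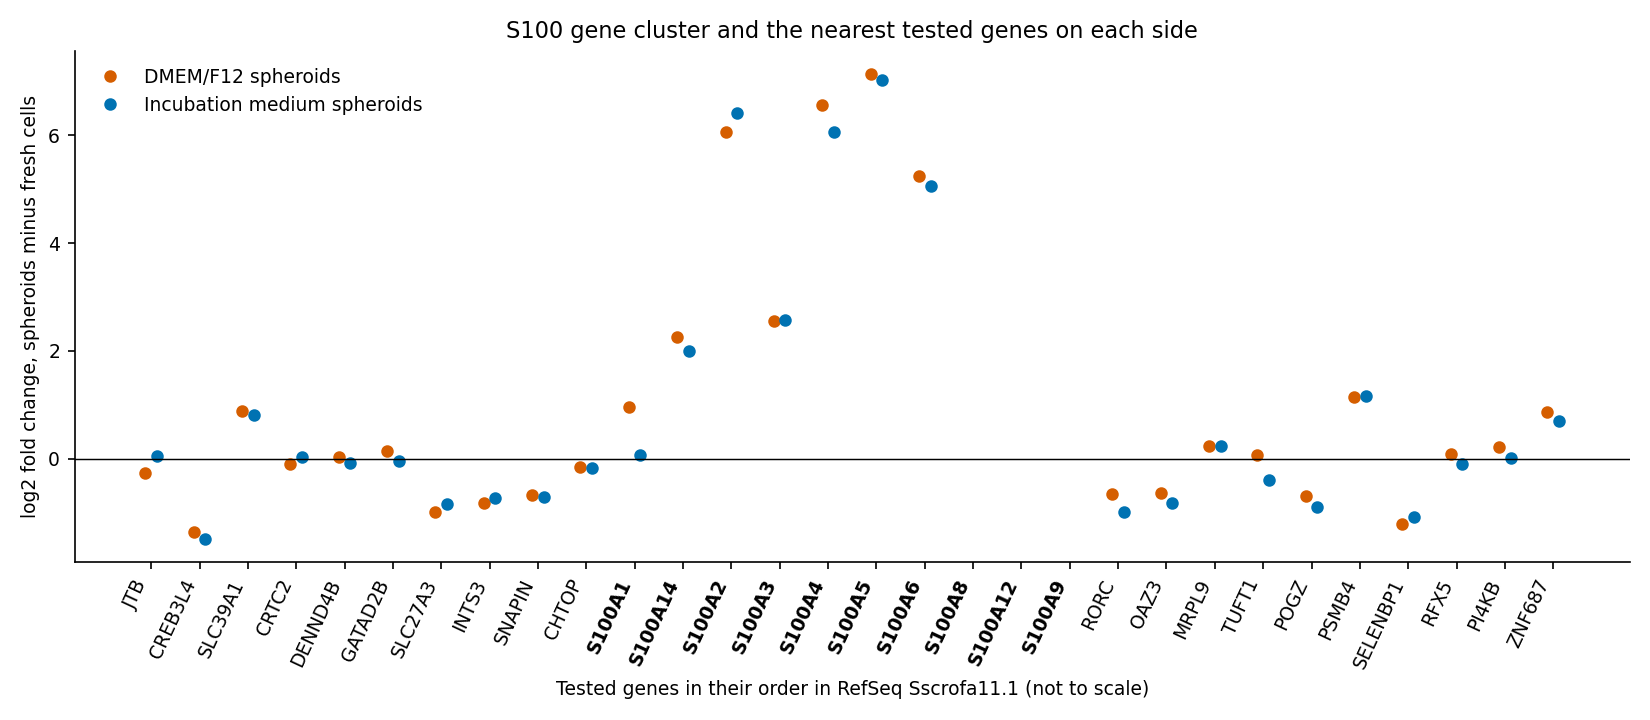
Log2 fold change from fresh cells of the S100 genes of the cluster (bold) and of the 10 nearest tested genes on each side, ordered along the chromosome and not to scale, in DMEM/F12 (orange) and incubation medium spheroids (blue). S100A8, S100A12 and S100A9 have no point because fresh cells held 0 to 3 counts. The flanking genes lie between -1.48 and 1.17, and S100A2 to S100A6 between 2.56 and 7.14. The top value is that of S100A5, which passed the filter only through the spheroids.

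Annexins rose by smaller factors. ANXA2 (ENSSSCG00025013538), which forms a complex with S100A10 at the membrane, stood at 1217, 1317, 1263 and 1176 CPM in fresh cells. It had 3682, 3756, 4893 and 3626 CPM in DMEM/F12 and 2443, 2486, 2733 and 2814 in incubation medium spheroids. The 3 groups did not overlap, with DMEM/F12 highest. Its log2 fold change was 1.68 (SE 0.10, edgeR adjusted p = 4.55e-09) in DMEM/F12 and 1.07 (SE 0.10, adjusted p = 2.8e-07) in incubation medium.

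ANXA1 (ENSSSCG00025035250), known for damping inflammation and for binding S100A11, stood at 531, 899.7, 551 and 459 CPM in fresh cells. It had 1245, 1427, 1472 and 1440.1 CPM in DMEM/F12 and 1775, 1913, 1926 and 1818 in incubation medium spheroids. Fresh cell replicate 2 was highest of its group, and the groups did not overlap, with incubation medium highest. Against fresh cells the log2 fold change was 1.19 (SE 0.16, edgeR adjusted p = 1.22e-05) in DMEM/F12 and 1.61 (SE 0.16, adjusted p = 6.84e-07) in incubation medium. Counts of ANXA1 and ANXA2 were not whole in 41.7% of libraries each.

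ANXA5 (ENSSSCG00025032841), which binds exposed phosphatidylserine, stood at 430.4, 368, 464 and 351 CPM in fresh cells, at 1114, 1026, 1222 and 1199 in DMEM/F12 and at 909, 823, 882 and 1039.5 in incubation medium spheroids. ANXA7 (ENSSSCG00025075956), linked to membrane fusion, stood at 79.6, 83.6, 79.5 and 78.4 CPM, at 204, 193, 212 and 203 and at 236, 219, 205 and 208. Both were above fresh cells in all 8 spheroid libraries, and the replicates of ANXA7 lay close together in each group. In DMEM/F12 their log2 fold changes were 1.499 (SE 0.11, edgeR adjusted p = 2.02e-08) and 1.34 (SE 0.07, adjusted p = 1.64e-09). In incubation medium they were 1.18 (SE 0.11, edgeR adjusted p = 1.92e-07) and 1.44 (SE 0.07, adjusted p = 8.56e-10).

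ANXA8 (ENSSSCG00025026853), an annexin of skin and other layered epithelia, had the largest rise of the annexins. It stood at 5.56, 4.30, 5.04 and 3.91 CPM in fresh cells, at 91.5, 85.7, 75.9 and 47.0 in DMEM/F12 and at 90.6, 89.5, 59.0 and 60.6 in incubation medium spheroids. The log2 fold change was 3.99 in both media (SE 0.25 and 0.26, edgeR adjusted p = 8.1e-09 and 7.85e-09), a 15.9-fold and 15.8-fold rise. ANXA11 (ENSSSCG00025063349), which takes part in vesicle and granule traffic, stood at 114, 144, 150.2 and 136 CPM in fresh cells, at 239.5, 248, 273 and 242 in DMEM/F12 and at 241, 199.7, 219 and 245 in incubation medium spheroids. Its log2 fold change was 0.88 (SE 0.10, edgeR adjusted p = 1.71e-06) and 0.73 (SE 0.10, adjusted p = 1e-05).

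The remaining 3 annexins did not rise in either medium. ANXA13, an annexin of polarised epithelia, fell from 3.31 ± 0.694 CPM to 0.823 ± 0.344 in DMEM/F12 (log2 fold change -1.98, SE 0.34, edgeR adjusted p = 0.000126) and to 0.751 ± 0.380 in incubation medium (-2.10, SE 0.35, adjusted p = 8.77e-05). ANXA13 passed the filter through its fresh cell levels, which favoured this fall. ANXA9 (ENSSSCG00025050288) stood at 29.7, 25.4, 37.7 and 34.4 CPM in fresh cells, at 31.7, 34.8, 40.01 and 29.5 in DMEM/F12 and at 17.5, 12.1, 13.0 and 10.3 in incubation medium spheroids. It fell in incubation medium, with no overlap (-1.26, SE 0.17, edgeR adjusted p = 1.01e-05), and was not called in DMEM/F12 (0.10, 95% interval -0.24 to 0.43, adjusted p = 0.596).

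ANXA4 (ENSSSCG00025047392), an annexin abundant in secretory epithelia, stood at 128, 107, 119 and 107 CPM in fresh cells, at 109.9, 98.8, 97.6 and 94.3 in DMEM/F12 and at 84.2, 79.7, 80.9 and 74.4 in incubation medium spheroids. All incubation medium libraries lay below both other groups, and DMEM/F12 overlapped fresh cells. The log2 fold change was -0.53 (SE 0.08, edgeR adjusted p = 4.59e-05) in incubation medium and -0.20 (SE 0.08, adjusted p = 0.038) in DMEM/F12. The DMEM/F12 call was lost with library totals (-0.12, edgeR adjusted p = 0.211), with no filter (-0.13, 0.285), with only the 2 groups in the fit (-0.20, 0.0606), and without fresh cell replicate 1 or 3, DMEM/F12 replicate 2, 3 or 4 or any 1 incubation medium replicate (adjusted p = 0.0538 to 0.138).

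The 9 annexins with a row summed to 2628 ± 254 CPM in fresh cells, 7189 ± 734 in DMEM/F12 and 6002 ± 231 in incubation medium spheroids (SD, n = 4). ANXA2 held 47.5% ± 2.25, 55.3% ± 2.68 and 43.6% ± 1.38 of these counts, and ANXA1 held 22.9% ± 5.09, 19.5% ± 1.59 and 31.0% ± 1.62. The count ratio of ANXA2 to its partner S100A10 was 3.63 ± 0.967, 2.63 ± 0.210 and 2.25 ± 0.254 in the 3 groups, with overlap between fresh cells and each medium. The ratio of ANXA1 to S100A11 was 1.82 ± 0.464, 1.03 ± 0.130 and 1.62 ± 0.206. The DMEM/F12 ratios of this pair lay below those of both other groups (exact permutation p = 0.0286 for each, the smallest possible, and adjusted p = 0.0953 over the 10 ratio tests). The 3 ANXA2R rows held at most 7.5 counts in any library and share reads, so the receptor's level is not described.

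Between the media 1 of the 28 tested members was higher in incubation medium and 8 were lower, against 12.7% and 12.3% of all tested genes. The median log2 difference, incubation medium minus DMEM/F12, was -0.16 over the members and 0.00 over all tested genes. A difference of at least 2-fold was called for 0 members upward, against 2.06%, and 3 downward, against 3.38%. Groups did not overlap for 2 members upward and 7 downward, against 13.9% and 13.0%. KRT18 was higher (0.76, SE 0.15, edgeR adjusted p = 0.00201), while KRT8 was not called (0.32, 95% interval -0.08 to 0.73, adjusted p = 0.243, and 0.00 without incubation medium replicate 4). KRT15 was lower by the largest amount among the members not at the floor (-1.79, SE 0.18, edgeR adjusted p = 1.21e-05), a 3.45-fold difference.

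Of the annexins, ANXA9 (-1.35, SE 0.16, edgeR adjusted p = 5.7e-05), ANXA2 (-0.61, SE 0.10, adjusted p = 0.000538), ANXA4 (-0.33, SE 0.08, adjusted p = 0.00961) and ANXA5 (-0.32, SE 0.10, adjusted p = 0.0359) were lower in incubation medium. The libraries of ANXA5 overlapped, and its call was lost with counts thinned to the smallest library (edgeR adjusted p = 0.050) and without DMEM/F12 replicate 1, 3 or 4 or incubation medium replicate 1, 2 or 3 (adjusted p = 0.056 to 0.111). ANXA1 was higher in all 4 incubation medium libraries and was not called (0.41, 95% interval 0.07 to 0.75, edgeR adjusted p = 0.0727). It was called with a replicate block (0.41, edgeR adjusted p = 0.0241) and without fresh cell replicate 2 or 4 (0.41 each, adjusted p = 0.00316 and 0.0474).

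Among S100 genes S100A1 was lower in incubation medium (-0.90, SE 0.23, edgeR adjusted p = 0.00997), with overlap between 1 library of each group. S100PBP was lower too (-0.49, SE 0.15, edgeR adjusted p = 0.0261), a call lost without DMEM/F12 replicate 1 or 3 or incubation medium replicate 2 or 4 (adjusted p = 0.0514 to 0.0833) and with thinned counts (0.063). S100G was at least 2.79-fold lower (edgeR adjusted p = 0.0297), with 28 of its 35 DMEM/F12 counts in replicate 1. Without that library the DMEM/F12 mean was 0.288 CPM, under the floor of 0.382 CPM, so the bound rests on replicate 1. The call was lost without incubation medium replicate 2 or 3 (adjusted p = 0.0539 and 0.0528).

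The S100 genes with the largest rises from fresh cells were not called between the media by edgeR without a replicate block. With the block S100A4, S100A8, S100A9 and S100A12 were called, as given below. The intervals that follow are those without the block. The 95% intervals of the log2 difference ran from 0.03 to 0.70 for S100A2, from -0.50 to 0.14 for S100A6, from -0.44 to 0.22 for S100A5 and from -1.13 to 0.12 for S100A4. S100A10 lay lower in all 4 incubation medium libraries (-0.36, edgeR adjusted p = 0.108), and was called with library totals (-0.45, adjusted p = 0.0324), with only the 2 groups in the fit (-0.36, adjusted p = 0.0164) and without fresh cell replicate 1 (-0.36, adjusted p = 0.0196).

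Replicate numbers were taken to pair the libraries, and a replicate block raised the number of members higher in incubation medium from 1 to 5, where 16.6% of all tested genes were called higher. Besides KRT18 and ANXA1 these were S100A8 (0.75, edgeR adjusted p = 0.00561), S100A9 (0.55, adjusted p = 0.0423) and S100A12 (0.79, adjusted p = 0.0417), and S100A4 was lower (-0.48, adjusted p = 0.00855). Without the block these 4 had adjusted p of 0.0974, 0.103, 0.175 and 0.232. S100A12 was also called without incubation medium replicate 4 (1.21, edgeR adjusted p = 0.0475), S100A8 without DMEM/F12 replicate 3 (1.01, adjusted p = 0.0386) and S100A9 without DMEM/F12 replicate 2 (0.76, adjusted p = 0.046).

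**Figure D5:**
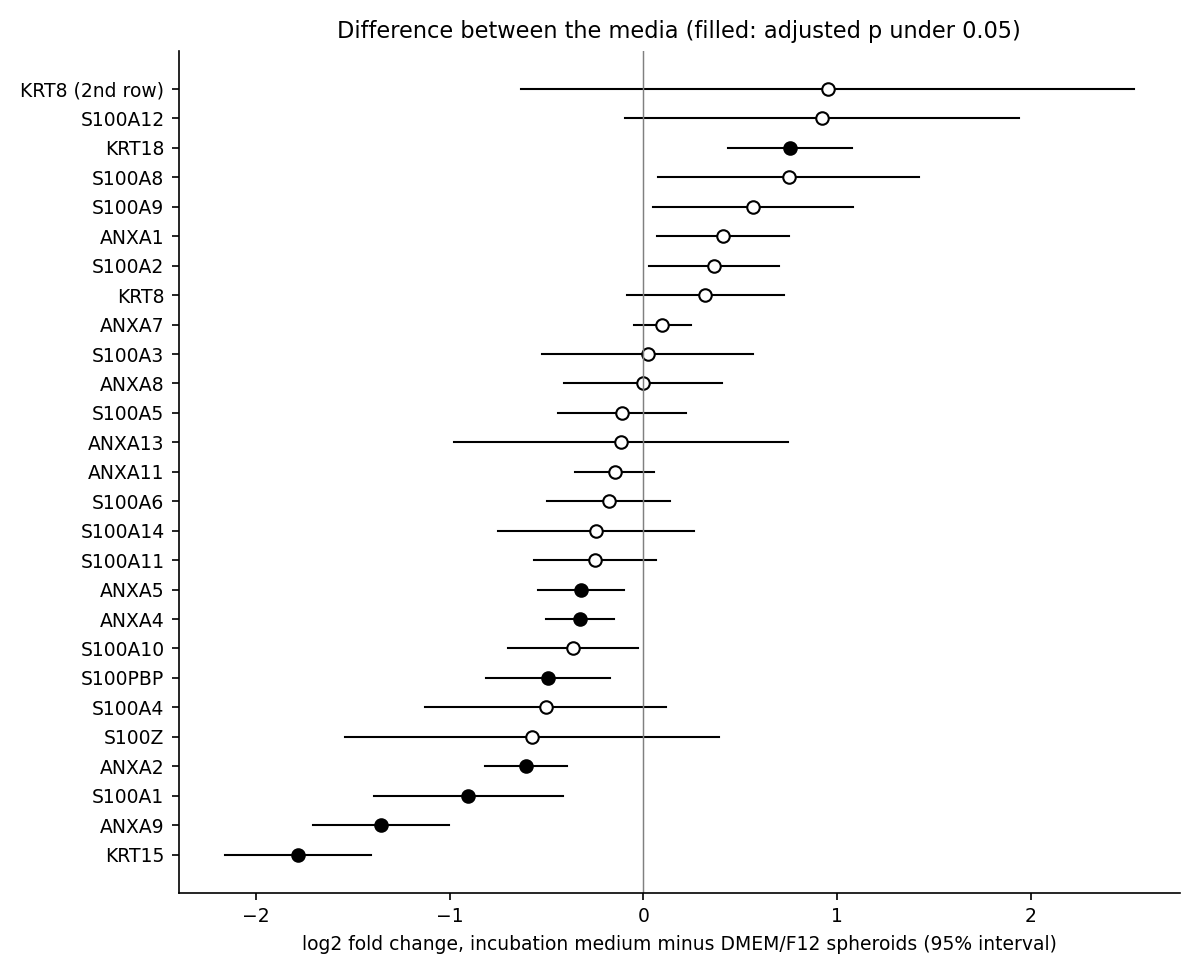
Log2 difference between incubation medium and DMEM/F12 spheroids with its 95% interval for 27 tested members, filled where the adjusted p was under 0.05. S100G is left out because it had 0 counts in incubation medium. KRT18 at 0.76 is the 1 filled point above 0, and KRT15 at -1.79 lies lowest.

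Genes that work with these families were read from lists chosen with earlier results of these data known. Of 7 tested intermediate filament genes other than keratins, 3 rose and 1 fell in DMEM/F12 and 2 rose and 2 fell in incubation medium, with medians of 0.33 and -0.04. For these and the next 3 lists the shares over all tested genes were 35.1% higher and 35.7% lower in DMEM/F12 and 35.8% each way in incubation medium, so counts this small are given as descriptions. NES, the filament protein nestin of progenitor cells, rose from 2.93 ± 0.834 CPM to 39.0 ± 11.099 in DMEM/F12 and 12.1 ± 3.07 in incubation medium, and was lower in the latter (log2 difference -1.69, edgeR adjusted p = 0.00013). LMNA, a nuclear lamina protein, was at 408 ± 27.6, 568 ± 23.1 and 388 ± 48.0 CPM and rose in DMEM/F12, with the media differing by -0.55 (adjusted p = 0.00059).

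Of 7 tested genes that anchor keratin filaments at the cell edge or bind keratins, 3 rose and 2 fell in DMEM/F12 and 4 rose and 1 fell in incubation medium (medians 0.18 and 0.85). The desmosomal plaque protein PKP1 went from 0.789 ± 0.587 CPM to 19.8 ± 7.77 in DMEM/F12 and 2.07 ± 0.160 in incubation medium, with a log2 difference of -3.25 between the media (edgeR adjusted p = 9.49e-06). PKP1 passed the filter through its spheroid levels, which favoured a rise. Its relative PKP3 rose from 15.4 ± 2.81 to 60.0 ± 3.88 and 56.3 ± 3.14 CPM, and periplakin (PPL) from 49.1 ± 4.94 to 133.5 ± 7.40 and 137 ± 12.2 CPM. Desmoplakin (DSP), which ties keratins to desmosomes, was not called (32.1, 36.5 and 31.4 CPM). The genes of this list that fell are not named here. Of 20 cornified envelope and squamous genes 3 had a row and 0 passed the filter.

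Among 11 tested epithelial transcription factors with targets among keratin genes, 5 rose and 4 fell in DMEM/F12 and 3 rose and 3 fell in incubation medium (medians 0.13 and 0.01). ELF3 rose from 101 ± 7.61 CPM to 391 ± 28.3 and 589 ± 139 CPM, while KLF4 fell from 1201 ± 447 to 104 ± 8.21 and 107 ± 18.5 CPM. Of 15 tested partners and receptors of S100 proteins and annexins, 9 rose and 3 fell in DMEM/F12 and 9 rose and 2 fell in incubation medium (medians 0.81 and 0.83).

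MYH9, the non-muscle myosin bound by S100A4, rose from 327 ± 18.2 CPM to 1123 ± 121 and 1202 ± 136. The plasminogen activators, whose surface activity the complex of ANXA2 and S100A10 aids, also rose. PLAT went from 434 ± 34.8 CPM to 597 ± 62.3 in DMEM/F12 and 2656 ± 96.2 in incubation medium, with a log2 difference between media of 2.15 (edgeR adjusted p = 1.16e-08). PLAU went from 7.60 ± 3.80 to 193 ± 39.0 and 183 ± 33.7 CPM. The S100 receptors TLR4 and AGER did not rise, and other receptors on the list are not described here. TLR4 fell from 49.1 ± 6.83 to 22.6 ± 3.46 and 34.1 ± 2.74 CPM, and AGER was at 50.1 ± 5.07, 45.2 ± 6.78 and 37.9 ± 5.92 CPM and fell in incubation medium (-0.40, edgeR adjusted p = 0.0126).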

How the data were processed

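The authors deposited 1 table of expected counts per gene and library, which are estimated counts that need not be whole. Per the submitters' processing notes the tools were fastp 0.24.0, STAR 2.7.11, SAMtools 1.22.1 and featureCounts of Subread 2.1.1, with roles and settings not given, and the genome build is not given in the sources used here. Between 19.1% and 20.5% of nonzero counts per library were not whole. The design had assumed whole counts, so the deposited expected counts were rounded for the test. The 92 spike-in rows were left out of 30553, and 17202 gene rows carry no symbol.

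edgeR 4.0.16 in R 4.3.3 fitted the quasi-likelihood model to all 12 libraries with TMM scaling, after its filter by group left 14070 genes, with Benjamini-Hochberg adjustment over all of them and a threshold of 0.05. CPM were computed from the deposited counts with TMM-scaled library sizes. The 11 tested members whose counts were whole in every library were also tested apart. Ratios of partners were compared by two-sided exact permutation tests. Alternatives were DESeq2 1.42.0, limma-voom (limma 3.58.1), other scalings and filters, a replicate block, thinned counts and leaving out each library. Figures were drawn with matplotlib 3.10.9, and the scripts were tested on simulated data.

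Replicate numbers in the labels were checked for pairing. Over genes, deviations from the group means correlated between same-numbered libraries at 0.20 to 0.54, above 0.1 for every pair, so the numbers were taken to pair the libraries on the data, since no label says what a number marks. Over the members alone these correlations were -0.33 to 0.35 between fresh cells and spheroids and 0.21 to 0.81 between the media. Counting intervals and floors of 3 counts cover counting error only. Named members were KRT18, S100A5, the 8 tested members of each family with the highest mean CPM, and per comparison the 3 largest called changes each way with mean CPM of at least 5 and no overlap. Other members are given because all were accounted for. The members and lists were chosen with earlier results of these data known.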

Additional observations from a re-analysis of the deposited data

Results flagged for a closer look

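A library stood apart from the other 3 of its group by Dixon's ratio at its 95% critical value in 6 of 82 groups of 4 examined, where chance alone flags about 1 in 20. ANXA2 was 4893 CPM in DMEM/F12 replicate 3, against 3626 to 3756 in the others. S100G was 3.40 CPM in DMEM/F12 replicate 1, against 0.120 to 0.396, and ANXA13 was 1.34 CPM in the same library, against 0.599 to 0.696. S100Z was 0.782 CPM in fresh cell replicate 4, against 2.95 to 3.36. In fresh cells S100A8 was 0.179 CPM in replicate 2 and 0 in the others, and S100A9 was 0 in replicate 4 and 0.174 to 0.187 in the others, which are differences of 1 count. The causes were not tested.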

How the results depend on the processing

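Replicate numbers were taken to pair the libraries, and the replicate block changed the call in 6 of 84 member tests, all given in the report, and no other call. It gave 5 members higher in incubation medium than in DMEM/F12, against 1. limma-voom and the fit of only the 2 groups each gave 2. In DMEM/F12 against fresh cells, library totals and the fit of only the 2 groups left 1 member lower, against 2. Testing only genes with whole counts, which leaves 11 members, gave 8 higher and 1 lower in DMEM/F12, 8 higher in incubation medium, and 0 higher and 3 lower between the media. These 11 include all 5 members that passed the filter only through the spheroids, and also ANXA13 and S100G. Of all genes in that fit 70.6% were called in DMEM/F12, 71.6% in incubation medium and 22.7% between the media. Leaving out 1 library at a time gave 21 to 22 higher and 1 to 3 lower in DMEM/F12, 21 higher and 4 lower in incubation medium, and 1 to 2 higher and 5 to 9 lower between the media, with 5 lower without incubation medium replicate 2 and 2 higher without fresh cell replicate 2 or 4, DMEM/F12 replicate 2 or 3 or incubation medium replicate 4.

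Some log2 values near 0, none of them called, changed sign. Leaving out 1 library at a time gave -0.1709 to 0.109 for ANXA8, -0.5337 to 0.2138 for ANXA13 and -0.0979 to 0.144 for S100A3 between the media. It gave -0.1705 to 0.1858 for S100A1 in incubation medium and -0.3486 to 0.2308 for S100Z in DMEM/F12 against fresh cells. The log2 ratio of KRT8 to KRT18 in DMEM/F12 ranged from -0.065 to 0.0736 and that of ANXA1 to S100A11 in incubation medium from -0.2415 to 0.0048, the latter above 0 without fresh cell replicate 2. ANXA8 between the media was 0.0135 under limma-voom, 0.01 with the block, 0.0058 with whole counts and 0.075 with thinned counts, and S100A3 was -0.0745 with library totals. S100Z in DMEM/F12 was -0.0114 with a filter of mean 10 counts, -0.0033 with the block and -0.2211 with thinned counts. The causes were not tested. Genes at 0 to 3 counts in a group limit S100A8, S100A9, S100A12, S100G and the second KRT8 row to bounds or wide intervals.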
